A study of Mus musculus with 6 samples.

Results

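A set of genes for neurotransmitter receptors, cell adhesion and other membrane functions was followed in fibroblasts of dysplastic and normal mouse skin. These were Gabra4, Gria1, Ntm, Adgrg6, Slc16a9, Itm2a and Rflna, 7 of the 18193 genes with a probe set naming that gene alone. They were chosen by their lower values in cancer-associated fibroblasts on these same 6 arrays, so the difference between the groups is a description and carries no test. All 16 probe sets that name 1 of these genes alone are given, including those that showed little difference. Rflna encodes a cytoplasmic protein that binds filamin, so not every gene of the set is a membrane gene.

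RNA came from PDGFRα-positive cells that were sorted from ear suspensions of male mice at 4 months of age. Cancer-associated fibroblasts (CAF, 3 arrays) came from the dysplastic ear skin of mice of the K14-HPV16 line, whose papillomavirus transgene is driven by the keratin 14 promoter and so acts in basal keratinocytes and not in the fibroblasts themselves. Normal dermal fibroblasts (NDF, 3 arrays) were from ears of age-matched non-transgenic FVB/n mice, and the ears of 15 mice per genotype were used. The labels call the arrays biological repetitions without saying whether each was a separate pool of animals, so the p-values given for other genes measure the spread between these arrays, which may be technical.

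Several of these genes are best known from neurons. GABA-A receptors are chloride channels built of several subunits, and AMPA receptors are cation channels that carry fast excitatory transmission. IgLON proteins are immunoglobulin-domain adhesion molecules tethered to the outer membrane. Adhesion G protein-coupled receptors join a large extracellular part to a signalling part with several membrane spans. Monocarboxylate transporter family proteins move small organic acids and related solutes across membranes, BRICHOS proteins carry a domain that assists folding of their own precursor, and refilins bind filamins and arrange actin filaments.

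Values are log2 intensities after RMA, the array summary method, on which low signals are compressed, so a difference of a dim probe set is understated. Intensities of different probe sets are not comparable as amounts of RNA. The median of all probe set means was 4.84 and the lower quartile 3.60, and these are used only to mark dim probe sets. CAF replicate 3 stood apart from the rest. Its correlation with any other array over all probe sets was 0.913 to 0.932, against 0.960 to 0.983 among the other 5 arrays, and differences without it are therefore given beside the main ones. Among all genes the median SD was 0.35 in CAF and 0.21 in NDF, and the CAF value was 0.18 without that array. The 3′ to 5′ difference of the Gapdh control probe sets, a sign of RNA integrity, was 1.19 to 1.42 in CAF and 0.98 to 1.5 in NDF.

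Promoter sequence was looked up to describe what the 7 genes share beside the lower CAF values they were chosen for. RefSeq promoters of assembly GRCm38.p6, from 250 bases before to 50 bases after the annotated start, were found for 5 of the 7 genes, with 2 of them for Ntm. The GC box GGGCGG, on either strand, was present in 5 of these 6 promoters, against 35.7% of all 32851 promoters in the table. Each of the 5 genes had it in at least 1 promoter. No share per gene, or among promoters of similar GC content, was computed. The CCAAT box CCAAT, on either strand, was in the Gabra4 promoter and in 1 Ntm promoter, against 37.4% of all. No match to the TATA box TATAAA (13.6% of all promoters), the AP-1 site TGANTCA (7.81%), the cyclic AMP response element TGACGTCA (1.79%), the left part of the neuronal silencer element TTCAGCACC (0.371%) or the SOX9-type site ACAATGG (3.66%) was found on either strand in these windows. The searched motifs did not overlap one another in these promoters. GC content was 58.7% for Gabra4, 69.0% for Adgrg6, 70.7% for Slc16a9 and 62.0% for Itm2a, against a median of 52.7% in the table. The Ntm promoters had 55.7% and 47.3%, the second of them below that median. The number of CpG dinucleotides ranged widely, with 38 in Adgrg6, 26 in Slc16a9, 12 in Gabra4 and 7 in Itm2a, where the table's median was 7. The Ntm promoters had 19 and 2 CpG dinucleotides, and the one with 19 carried the GC box. The promoters of 4 genes are printed 5′ to 3′ to show the GC boxes and the contrast in CpG density, with matches to GGGCGG and CCAAT or their reverse complements in capitals. Which start site these fibroblasts used is not known from the arrays.
Gabra4 promoter, chr5:71658259-71658558, minus strand: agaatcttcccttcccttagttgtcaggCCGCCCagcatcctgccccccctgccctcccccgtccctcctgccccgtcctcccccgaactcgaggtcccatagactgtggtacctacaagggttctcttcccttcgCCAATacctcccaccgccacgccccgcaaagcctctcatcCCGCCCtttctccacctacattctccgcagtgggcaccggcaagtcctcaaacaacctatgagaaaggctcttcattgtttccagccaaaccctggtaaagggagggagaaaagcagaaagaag
Adgrg6 promoter, chr10:14544987-14545286, minus strand: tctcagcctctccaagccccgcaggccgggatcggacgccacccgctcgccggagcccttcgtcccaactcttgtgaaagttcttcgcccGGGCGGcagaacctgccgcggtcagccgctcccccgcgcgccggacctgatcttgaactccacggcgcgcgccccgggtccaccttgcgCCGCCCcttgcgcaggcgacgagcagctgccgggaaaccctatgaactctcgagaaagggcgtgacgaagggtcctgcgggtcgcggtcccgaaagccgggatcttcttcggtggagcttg
Slc16a9 promoter, chr10:70245026-70245325, plus strand: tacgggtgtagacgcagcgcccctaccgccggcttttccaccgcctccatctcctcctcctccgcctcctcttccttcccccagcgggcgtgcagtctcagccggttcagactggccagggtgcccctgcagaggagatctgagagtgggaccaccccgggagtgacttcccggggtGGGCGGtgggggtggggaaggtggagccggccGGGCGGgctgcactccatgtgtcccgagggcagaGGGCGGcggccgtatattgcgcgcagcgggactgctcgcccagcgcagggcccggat
Itm2a promoter, chrX:107403311-107403610, minus strand: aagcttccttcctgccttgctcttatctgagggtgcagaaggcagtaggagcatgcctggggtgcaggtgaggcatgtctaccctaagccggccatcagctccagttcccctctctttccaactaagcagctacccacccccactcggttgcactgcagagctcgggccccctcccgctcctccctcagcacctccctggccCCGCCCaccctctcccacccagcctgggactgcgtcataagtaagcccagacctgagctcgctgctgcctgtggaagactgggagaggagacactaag

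The values of all 7 genes were lower on every CAF array than on any NDF array for the probe set with the highest mean, which represents the gene. This held for 7 of 7 genes, where 8.66% of all genes showed it, but the genes were chosen on this contrast and nothing is read from that count. Over all 16 probe sets the groups did not overlap for 14, against 7.14% of all probe sets on the array. The mean was lower in CAF for 16 of 16. These sets measure the same chosen genes on the same arrays, so nothing is read from these counts either. The differences of the 7 representative probe sets ran from -1.33 for Ntm to -2.19 for Itm2a, with a median of -1.79, and from -1.30 to -1.95 without CAF replicate 3. The median difference of all genes was -0.04. The CAF mean of 6 of the 7 was at or above the median probe set, Gabra4 being the exception. That median is not a detection threshold, and whether a gene was still expressed in CAF was not tested.

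**Figure D1:**
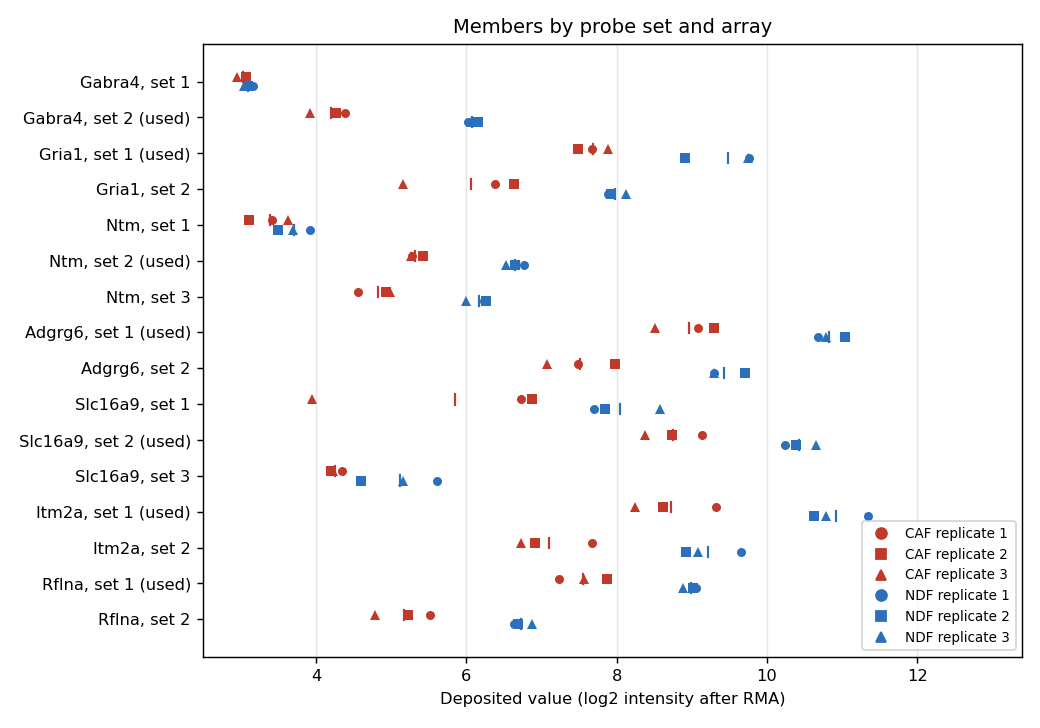
Log2 intensity (x axis) of each of the 16 probe sets (rows, in the order described in the text) on the 3 CAF arrays (red, upper) and the 3 NDF arrays (blue, lower), with marker shape for the replicate and a bar for the group mean. The groups do not overlap for 14 probe sets. The first Gabra4 set and the first Ntm set are the dim ones that overlap.

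Among the neurotransmitter receptor genes, Gabra4 encodes the α4 subunit of GABA-A receptors, which in brain is found mainly in receptors outside synapses. Its brighter probe set, 1433707_at, was at 4.39, 4.27 and 3.92 on the CAF arrays, against 6.02, 6.16 and 6.06 on the NDF arrays. The NDF arrays lay close together, with an SD of 0.07 against 0.24 in CAF, and the lowest of them was 1.62 above the highest CAF array. The difference was -1.88 ± 0.19 (SE, n = 3 per group), or 3.69-fold lower in CAF. The other probe set, 1429330_at, was at 3.07, 3.07 and 2.95 in CAF and 3.16, 3.09 and 3.04 in NDF. It lay below the lower quartile on every array and its groups overlapped, with a difference of -0.07 ± 0.16.

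Gria1, on chromosome 11, encodes the GluA1 subunit of AMPA receptors. Probe set 1435239_at read 7.67, 7.49 and 7.89 in CAF, against 9.76, 8.91 and 9.75 in NDF. NDF replicate 2 was lower than the other NDF arrays and still 1.03 above the highest CAF array. The difference was -1.79 ± 0.28 (SE), or 3.47-fold lower in CAF. Probe set 1448972_at read 6.38, 6.63 and 5.16 in CAF and 7.88, 7.92 and 8.13 in NDF, a difference of -1.92 ± 0.39. The probe sets placed CAF replicate 3 differently, as the highest CAF array by one and the lowest by the other, and without it their differences were -1.90 and -1.47.

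Of the adhesion genes, Ntm encodes neurotrimin, a member of the IgLON family that takes part in contacts between neurites. Probe set 1426283_at was at 5.27, 5.42 and 5.26 in CAF and at 6.76, 6.65 and 6.53 in NDF. These were the tightest CAF values among the 7 representative probe sets, with an SD of 0.09 in CAF and 0.11 in NDF, and the difference was -1.33 ± 0.17 (SE), or 2.52-fold lower in CAF. Probe set 1458492_x_at, whose suffix marks possible matches to other transcripts, gave 4.56, 4.93 and 4.98 in CAF and 6.23, 6.26 and 6.0 in NDF. Its difference of -1.34 ± 0.20 was nearly the same size. The third set, 1426282_at, was dim and overlapped between the groups, at 3.41, 3.11 and 3.63 in CAF and 3.92, 3.49 and 3.69 in NDF.

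Adgrg6, formerly Gpr126, encodes an adhesion receptor that Schwann cells need in order to form myelin, acting through cyclic AMP, and that also functions in cartilage. Probe set 1437408_at was at 9.08, 9.30 and 8.51 in CAF and 10.68, 11.04 and 10.79 in NDF. The lowest NDF array was 1.37 above the highest CAF array. The difference was -1.87 ± 0.26 (SE), or 3.65-fold lower in CAF. Probe set 1437409_s_at followed it, with 7.48, 7.98 and 7.07 in CAF and 9.29, 9.71 and 9.30 in NDF and a difference of -1.93 ± 0.28. Both sets had CAF replicate 3 lowest and CAF replicate 2 highest, and without replicate 3 the differences were -1.64 and -1.71.

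Slc16a9 encodes MCT9, a monocarboxylate transporter family member known in human for carnitine transport. Probe set 1429727_at was at 9.13, 8.73 and 8.38 in CAF, against 10.24, 10.39 and 10.65 in NDF. The groups were 1.12 apart at their nearest arrays, and the difference was -1.68 ± 0.25 (SE), or 3.21-fold lower in CAF. Probe set 1429726_at was at 6.73, 6.87 and 3.94 in CAF and 7.70, 7.84 and 8.58 in NDF. Its larger difference of -2.19 ± 0.78 rested in part on CAF replicate 3 and was -1.24 without it. The third set, 1454104_a_at, was dimmer, with 4.35, 4.2 and 4.22 in CAF and 5.61, 4.60 and 5.15 in NDF, a difference of -0.87 ± 0.28.

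Itm2a encodes a type II membrane protein with a BRICHOS domain that was first described in cartilage and bone differentiation and is also found in activated T cells. It had the largest difference of the 7 representative probe sets. Probe set 1423608_at was at 9.32, 8.61 and 8.25 in CAF and 11.34, 10.63 and 10.78 in NDF. The difference was -2.19 ± 0.33 (SE), or 4.56-fold lower in CAF, and -1.95 without CAF replicate 3. Probe set 1451047_at ranked the 6 arrays in the same order, with 7.67, 6.91 and 6.72 in CAF and 9.65, 8.92 and 9.08 in NDF. Its difference was -2.12 ± 0.32.

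Rflna, on chromosome 5, encodes refilin A, which binds filamins and helps to organise actin filaments, and which with refilin B is known from cartilage growth in the mouse. Probe set 1441881_x_at, with a suffix for possible cross-matching, was at 7.23, 7.87 and 7.56 in CAF and 9.06, 9.02 and 8.88 in NDF. The NDF values were close together, with an SD of 0.10 against 0.32 in CAF, and the difference was -1.43 ± 0.22 (SE), or 2.70-fold lower in CAF. Probe set 1453192_at, without that suffix, was at 5.51, 5.22 and 4.79 in CAF and 6.64, 6.69 and 6.87 in NDF. Its difference of -1.56 ± 0.23 was of similar size.

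The genes differed in how they varied among the arrays of a group. CAF replicate 3 was the lowest CAF array for 11 of the 16 probe sets, CAF replicate 2 for 3 and CAF replicate 1 for 2. By the root mean square distance between array profiles, each taken as deviations from its own mean over the 6 arrays, Gabra4 and Adgrg6 were the closest pair at 0.15, next to Ntm and Rflna at 0.15. Gabra4 and Slc16a9 were 0.18 apart. Itm2a and Rflna were the farthest apart at 0.62. Among the CAF arrays, Itm2a was lowest in replicate 3 and Rflna in replicate 1. The SD was larger in CAF than in NDF for 5 of the 7 genes, Gria1 and Ntm being the others, and for 72.1% of all genes.

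**Figure D2:**
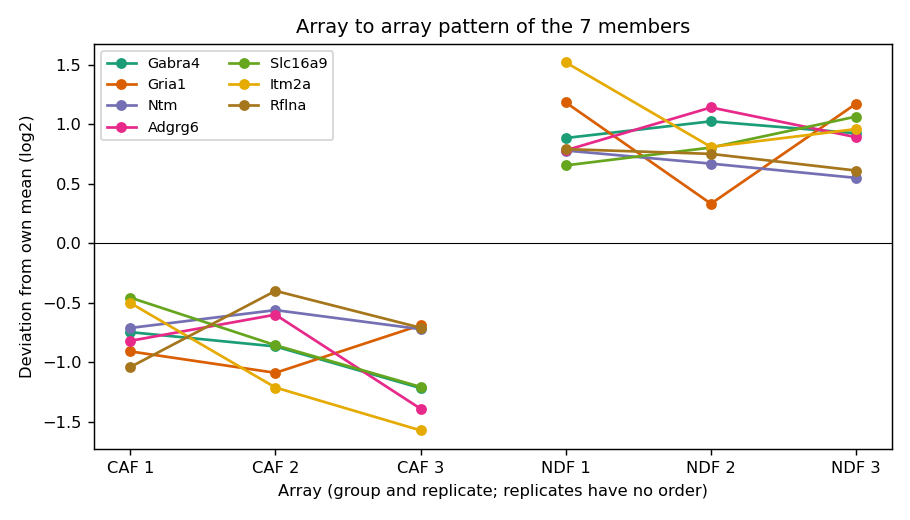
Deviation of each representative probe set from its own mean over the 6 arrays (y axis, log2) on each array (x axis), 1 colour a gene, with lines joining the arrays of a group only to help the eye. All 7 genes lie below 0 on the CAF arrays and above 0 on the NDF arrays, while the order of the arrays within a group differs between genes.

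Genes related to the 7 by family or pathway were listed by function and tested. The lists were chosen with earlier results of these data known, so the counts are not independent of these arrays. Of 163 such genes in 11 lists, 4 passed limma's test as higher in CAF and 0 as lower at an adjusted p under 0.05, where 0.489% and 0.0275% of all genes did. These shares stand for 89 and 5 genes. The 5 lower genes include 3 of the members, which were chosen on this contrast. At an unadjusted p under 0.05, 12 had higher and 12 had lower CAF values, or 7.36% in each direction, against 4.93% and 4.02% of all genes. Every CAF array was below every NDF array for 19 of them (11.7%, against 8.66% of all genes) and above for 19 (6.78% of all genes). Without CAF replicate 3 the remaining CAF arrays were below every NDF array for 40 of the 163, against 19.7% of all genes. Their median difference was -0.03. The 4 calls were Gad1, Chl1, Egr2 and Emb, and all 4 were lost with any 1 NDF array or CAF replicate 2 left out, when 0 of the 163 passed as higher. Without CAF replicate 1 the only call was Adgrf5, and without CAF replicate 3 there were 3, Egr2, Emb and Gad1.

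**Figure D3:**
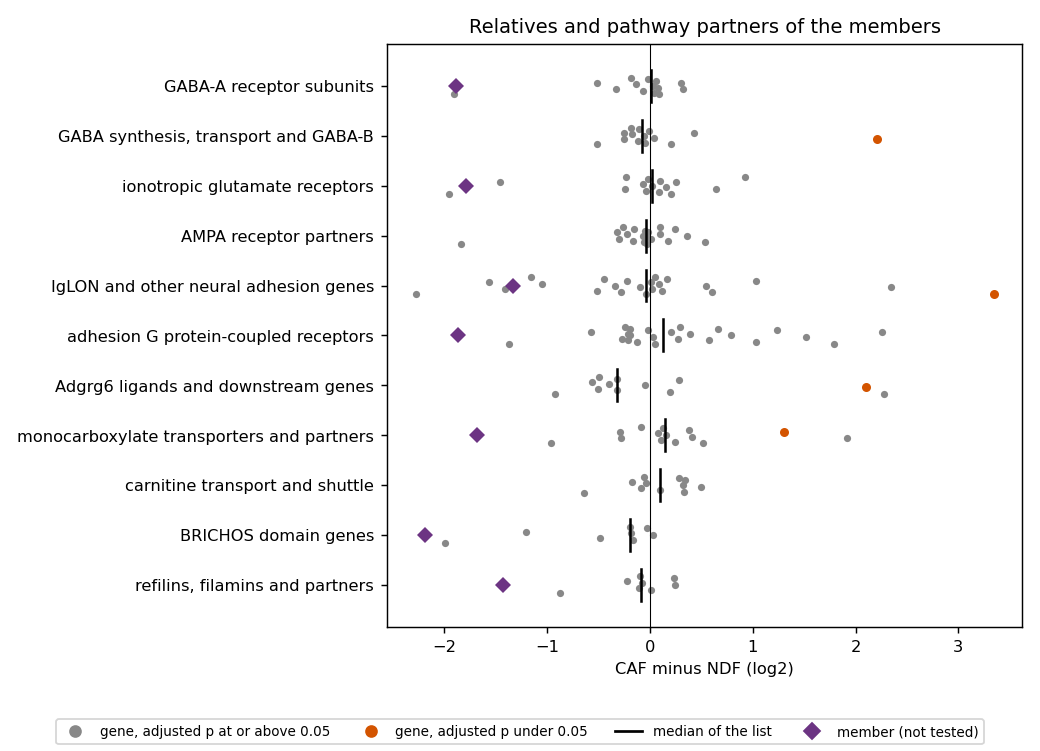
Difference between CAF and NDF (x axis, log2, CAF minus NDF) of each measured gene in the 11 lists of relatives and partners (rows), with a bar for the list's median and a diamond for each of the 7 members. Most relatives lie near 0, the 4 genes past the threshold are all higher in CAF, and the diamonds lie at or near the left end of their lists except for Ntm, which has Lsamp, Negr1 and Ncam2 further to the left.

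GABA receptor relatives were mostly dim. Of 14 other measured GABA-A subunit genes, 0 passed in either direction by limma and 1 was lower at an unadjusted p under 0.05, with a median difference of 0.01 (-0.14 without CAF replicate 3), and 13 were below the median probe set. The one was Gabrb2, a β subunit that assembles with α subunits, at 4.76, 3.97 and 3.02 in CAF and 5.23, 6.37 and 5.86 in NDF. Its difference was -1.90 ± 0.49 (limma adjusted p = 0.231), and its 4 other probe sets differed by -0.14 to -0.56. The other measured α subunit genes differed by -0.06 for Gabra3, 0.09 for Gabra2, 0.06 for Gabra5 and 0.32 for Gabra6, all of them low on every array, and without CAF replicate 3 by -0.02 to 0.01. Of 14 genes for GABA synthesis, transport and GABA-B receptors, 1 rose and 0 fell. Gad1, which makes GABA from glutamate, was at 5.44, 5.53 and 4.81 in CAF and 3.24, 2.62 and 3.30 in NDF, a difference of 2.21 ± 0.29 (limma adjusted p = 0.037). The other Gad1 probe set, which was dim, differed by -0.15.

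Glutamate receptor relatives gave no call. Of 15 other ionotropic glutamate receptor genes, 0 passed in either direction by limma, 1 was lower at an unadjusted p under 0.05 and the median was 0.02, or -0.16 without CAF replicate 3. Grin2d, an NMDA receptor subunit, was at 6.31, 5.86 and 5.06 in CAF and 7.11, 7.29 and 7.19 in NDF, a difference of -1.45 ± 0.32 (limma adjusted p = 0.161). A dimmer Grin2d set gave -0.08. Gria3, another AMPA subunit, was at 8.20, 8.23 and 3.46 in CAF and 8.78, 8.25 and 8.73 in NDF. Its difference of -1.96 rested on CAF replicate 3 and was -0.37 without it. Gria2 and Gria4 differed by 0.09 and 0.64, and Gria4 by 1.12 without CAF replicate 3. Of 20 AMPA receptor partners 0 passed, and the scaffold gene Dlg2 had the smallest p, at 5.01, 3.86 and 4.17 in CAF and 5.01, 6.62 and 6.93 in NDF (difference -1.84 ± 0.55, limma adjusted p = 0.335). The other, dimmer Dlg2 sets differed by -0.19 and -0.36.

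The 4 other IgLON genes measured all had a lower mean in CAF by their brightest probe set, as Ntm did, and 0 of them passed limma's test. The median difference of all genes was itself below 0, at -0.04. Lsamp, the limbic system-associated IgLON, was at 7.20, 6.31 and 6.24 in CAF and 7.68, 8.06 and 8.24 in NDF, a difference of -1.41 ± 0.31 (limma adjusted p = 0.158), and a dimmer Lsamp set gave -1.04. Negr1, Opcml and Iglon5 differed by -1.57, -0.44 and -0.28, and Negr1 by -0.83 without CAF replicate 3. The groups overlapped for Opcml and Iglon5. Another Iglon5 set, which was dim, differed by 0.02. Another Opcml set differed by -1.42, also with overlap, and had CAF replicate 3 at 4.77. Of 23 other IgLON and neural adhesion genes in the list, 1 rose, 0 fell, while an unadjusted p under 0.05 was reached by 3 with higher and 3 with lower CAF values. Chl1, the close homolog of L1, was at 9.42, 8.85 and 8.76 in CAF and 6.29, 4.57 and 6.14 in NDF, a difference of 3.34 ± 0.48 (limma adjusted p = 0.0479). Its 3 other probe sets differed by 2.62, 1.58 and -0.20. Nfasc, an adhesion gene of axons and glia, and Ncam2, a neural cell adhesion gene, had opposite differences, at 2.34 ± 0.46 and -2.28 ± 0.46 (limma adjusted p = 0.116 and 0.125). Other probe sets differed by 2.16 and 0.33 for Nfasc and by -2.08 and 0.03 for Ncam2.

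Among 24 other adhesion G protein-coupled receptors 0 passed in either direction by limma, an unadjusted p under 0.05 was reached by 4 with higher and 0 with lower CAF values. The median was 0.13, and -0.04 without CAF replicate 3. The groups did not overlap for 2 of the 24 with CAF below and for 4 with CAF above, against 8.66% and 6.78% of all genes. Without CAF replicate 3 the count below was 6, against 19.7% of all genes then. The nearest to the threshold were Adgrf5 and Adgrl4, known from lung and blood vessel endothelium, at 2.26 ± 0.37 and 1.79 ± 0.45 (limma adjusted p = 0.0733 and 0.222). Of 12 ligands and downstream genes of Adgrg6, 1 rose and 0 fell by limma. At an unadjusted p under 0.05, 3 had lower and 2 had higher CAF values, against 4.02% and 4.93% of all genes. Every CAF array was below every NDF array for 4 of them and above for 3, against 8.66% and 6.78% of all genes. The median was -0.32, and -0.16 without CAF replicate 3. Egr2, the transcription factor that Adgrg6 signalling switches on in Schwann cells and that is also an early response gene, was at 11.84, 11.55 and 12.33 in CAF and 9.63, 10.03 and 9.74 in NDF. Its difference was 2.11 ± 0.25 (limma adjusted p = 0.028), opposite in sign to that of the receptor, and the second Egr2 set gave 2.26. Pou3f1, another factor of that pathway, differed by 2.28 ± 0.53 (limma adjusted p = 0.181), while its other, dimmer probe set differed by -0.14. Ligand and matrix genes of the list went both ways and 0 of them passed. The ligand genes Prnp and Lama2 differed by -0.32 and -0.50, the second by -0.17 without CAF replicate 3, and the collagen VI genes Col6a1, Col6a2 and Col6a3 by -0.51, -0.56 and -0.92. Prnp and these collagen VI genes were lower on every CAF array than on any NDF array. The collagen IV ligand genes Col4a1 and Col4a2 differed by 0.20 and 0.29, with every CAF array above every NDF array for Col4a2.

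Of 14 other monocarboxylate transporters and partners, 1 rose and 0 fell, and an unadjusted p under 0.05 was reached by 2 with higher and 0 with lower CAF values. Emb, embigin, an accessory protein that brings transporters of this family to the membrane, was at 11.47, 11.48 and 11.23 in CAF and 10.20, 9.94 and 10.11 in NDF. Its difference was 1.31 ± 0.18 (limma adjusted p = 0.0414), with 1.57 and -0.12 for its other probe sets. Slc16a6 and the lactate transporter Slc16a1 differed by 1.92 ± 0.39 and 0.51 ± 0.22 (limma adjusted p = 0.128 and 0.558), both with every CAF array above every NDF array, and Slc16a1 by 0.32 without CAF replicate 3. Of 11 genes of carnitine transport and its mitochondrial shuttle 0 passed by limma, and the carnitine octanoyltransferase gene Crot, at -0.64, was the 1 with an unadjusted p under 0.05.

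The BRICHOS genes included a cartilage gene close to the threshold. Of 8 other members 0 passed by limma, and 2 were lower at an unadjusted p under 0.05. Cnmd, chondromodulin, was at 8.71, 9.01 and 7.85 in CAF and 10.57, 10.32 and 10.67 in NDF, a difference of -2.0 ± 0.32 (limma adjusted p = 0.0633, and 0.026 without CAF replicate 3). The closest relatives of Itm2a differed less, Itm2c by -0.48 ± 0.17 (limma adjusted p = 0.443) and Itm2b by -0.18 (-0.05 without CAF replicate 3). The tendon gene Tnmd was at 11.49, 10.09 and 9.24 in CAF and 11.17, 11.58 and 11.69 in NDF, with overlap between the groups and a difference of -1.21, or -0.69 without CAF replicate 3. Of 8 other refilin, filamin and partner genes 0 passed by limma and 0 had an unadjusted p under 0.05. Rflnb, refilin B, was at 9.19, 8.63 and 9.35 in CAF and 10.76, 9.29 and 9.76 in NDF, a difference of -0.88 ± 0.40 (limma adjusted p = 0.613). Its groups overlapped, and the difference was -0.46 without NDF replicate 1 and -1.20 without NDF replicate 2. Its other probe sets differed by -0.51 and -0.23. The filamin gene Flna differed by 0.23 and its partner Filip1l by 0.25, or 0.63 without CAF replicate 3.

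Markers of other cells in the ear were measured on the same arrays, because in bulk RNA fewer cells of a type and less RNA per cell cannot be told apart. Chondrocyte markers were lower beside the 7 genes. Of 16 measured, 0 passed by limma over all genes, but 15 had a lower mean in CAF and 8 were lower at an unadjusted p under 0.05, against 4.02% of all genes. Every CAF array was below every NDF array for 8 of them, against 8.66% of all genes, and for 9 without CAF replicate 3, against 19.7% of all genes then. The median difference was -0.63, and -0.59 without that array. Their summed level was 14.32 to 14.83 (log2) on the CAF arrays and 14.97 to 15.26 on the NDF arrays. Collagen genes Col9a1 and Col2a1 differed by -1.55 ± 0.32 and -1.35 ± 0.34, and the matrilin gene Matn3 by -1.08 ± 0.24 (limma adjusted p = 0.128, 0.229 and 0.166). Acan and Sox9, both defining markers, differed by less, at -0.38 and -0.25, or -0.63 and -0.42 without CAF replicate 3. Matn1, the dimmest of the list, was below the lower quartile of probe sets on every array, at 2.87 to 3.57 in CAF and 3.26 to 3.37 in NDF. Their part in the result was not tested.

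**Figure D4:**
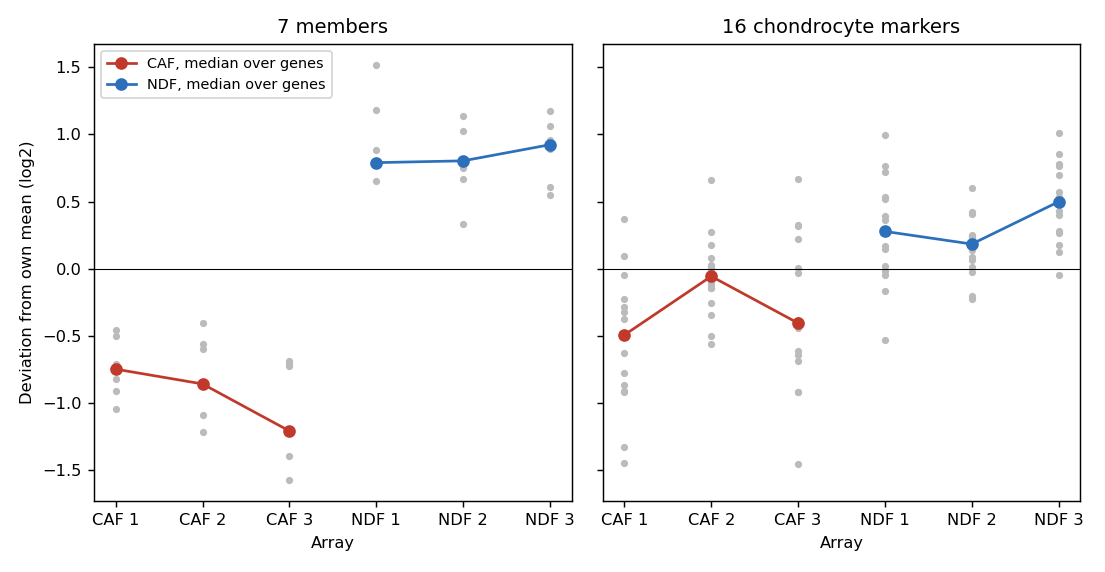
Deviation from own mean over the 6 arrays (y axis, log2) on each array (x axis) for the 7 members (left) and the 16 chondrocyte markers (right), with grey points for genes and coloured points for the median over genes in CAF (red) and NDF (blue). The chondrocyte markers have a median difference of -0.63 and the members one of -1.79. The members were chosen for lower CAF values on these arrays, so these medians cannot be compared in size. Of the 16 markers, 8 have every CAF array below every NDF array, against 8.66% of all genes.

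The neuron and Schwann cell lists had medians near 0. Of 17 neuron markers 0 passed by limma, and the median difference was 0.05, or -0.09 without CAF replicate 3. At an unadjusted p under 0.05, 2 had lower and 0 had higher CAF values, against 4.02% and 4.93% of all genes. The groups did not overlap for 3 with CAF below and for 0 with CAF above, against 8.66% and 6.78% of all genes. Without CAF replicate 3 the count below was 6, against 19.7% of all genes then. Their summed level was 9.15 to 9.67 in CAF and 9.26 to 9.64 in NDF. Snap25, a synaptic protein gene, was at 2.69 to 2.84 in CAF and 2.64 to 3.16 in NDF, and the neurofilament gene Nefm at 2.58 to 2.93 in CAF and 2.77 to 2.83 in NDF, both near the lowest values on the arrays. Map2 and Nefh, the 2 lower at an unadjusted p under 0.05, differed by -0.99 ± 0.24 and -1.12 ± 0.36 (limma adjusted p = 0.209 and 0.39). Of 17 Schwann cell markers 0 passed by limma, and the median was 0.11, or -0.07 without CAF replicate 3. An unadjusted p under 0.05 was reached by 3 with higher and 0 with lower CAF values, against 4.93% and 4.02% of all genes. Non-overlap was seen for 1 with CAF below and for 3 with CAF above, against 8.66% and 6.78% of all genes. Without CAF replicate 3 the count below was 3, against 19.7% of all genes then. Their summed level was 13.49 to 13.65 in CAF and 13.50 to 13.62 in NDF. Sox10, which defines the lineage, was at 4.42 to 5.29 in CAF and 4.35 to 4.97 in NDF, and Erbb3 differed by 1.37 ± 0.37 (limma adjusted p = 0.261).

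Dermal fibroblast markers had a small negative median. Of 23 measured 0 passed by limma, 18 had a lower mean in CAF, and the median was -0.20, or -0.10 without CAF replicate 3. At an unadjusted p under 0.05, 4 were lower and 1 higher, against 4.02% and 4.93% of all genes. Every CAF array was below every NDF array for 6 of them and above for 1, against 8.66% and 6.78% of all genes. Without CAF replicate 3 the count below was 7, against 19.7% of all genes then. Their summed level was 16.78 to 17.10 in CAF and 17.11 to 17.15 in NDF, and the sort marker Pdgfra differed by 0.08 ± 0.18. Col5a1, a fibrillar collagen chain, was at 10.40, 9.91 and 10.78 in CAF and 11.90, 11.09 and 11.75 in NDF (difference -1.21 ± 0.31, limma adjusted p = 0.235). Leukocyte, endothelial and keratinocyte markers were higher on the CAF arrays, with median differences of 2.93 for 11 neutrophil genes, 2.47 for 18 macrophage and dendritic cell genes, 1.49 for 16 endothelial genes and 1.14 for 19 keratinocyte genes. Without CAF replicate 3 these medians were 2.96, 1.96, 1.59 and 0.84. Neutrophil markers summed to 13.03 to 14.20 in CAF and 7.62 to 9.57 in NDF, macrophage and dendritic cell markers to 11.9 to 13.42 in CAF and 9.45 to 10.29 in NDF. Keratinocyte markers summed to 13.88 to 14.92 in CAF and 13.38 to 13.52 in NDF, and endothelial markers to 11.37 to 12.28 in CAF and 10.48 to 10.89 in NDF. By limma 3 of the neutrophil genes, 3 of the macrophage and dendritic cell genes, 1 of the endothelial genes and 0 of the keratinocyte genes rose, as did 2 of 12 lymphocyte genes. The share of all genes was 0.489%. An unadjusted p under 0.05 was reached with higher values by 7 neutrophil, 12 macrophage and dendritic cell, 13 endothelial, 11 keratinocyte and 5 lymphocyte genes. With lower values it was reached by 0 in each list. The shares of all genes were 4.93% and 4.02%. Median differences of the lymphocyte, pericyte, adipocyte, melanocyte and muscle lists lay between -0.06 and 0.23. That of the adipocyte list was 0.16, and -0.10 without CAF replicate 3. The part of these cells in the lower values of the 7 genes was not tested.

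**Figure D5:**
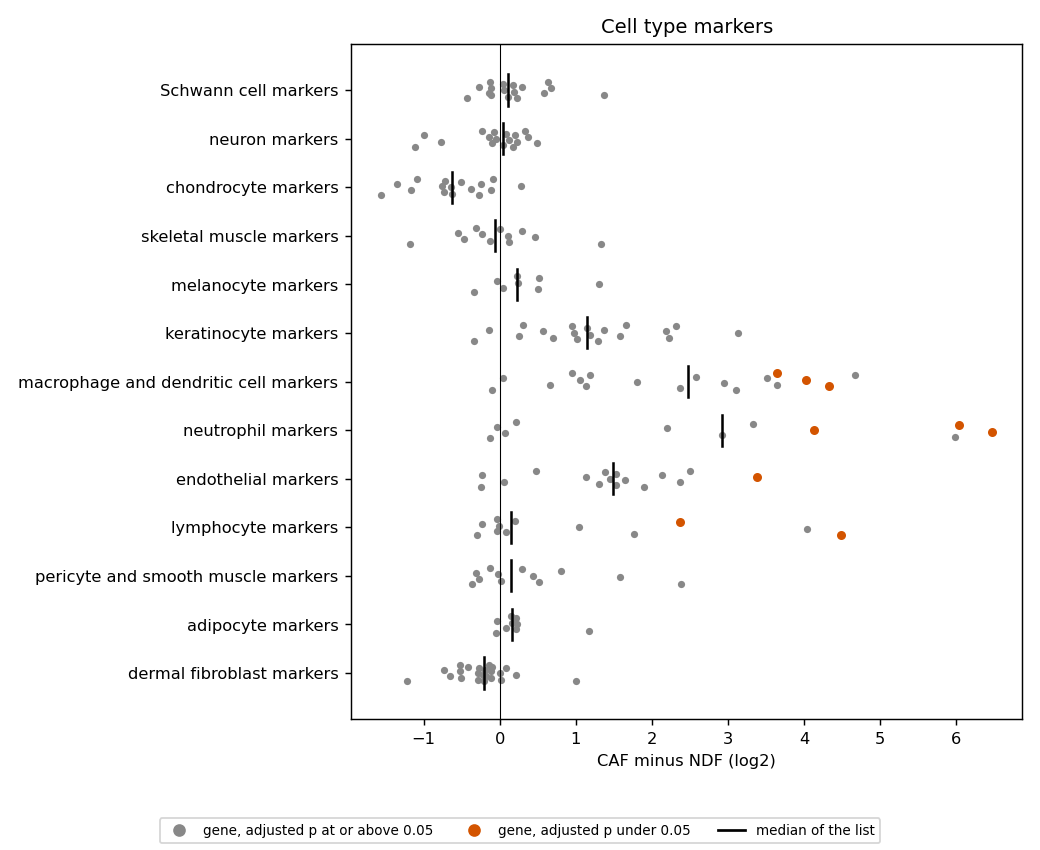
Difference between CAF and NDF (x axis, log2, CAF minus NDF) of each measured marker gene of 13 cell types (rows), with a bar for the median of each list and coloured points for genes past an adjusted p of 0.05. Chondrocyte and dermal fibroblast medians lie below 0, at -0.63 and -0.20, and those of leukocytes, endothelium and keratinocytes above it.

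Other genes had array profiles like those of the set, by the same root mean square distance over the 6 arrays. This search finds genes with a similar difference between the groups by its construction. Closest to the mean profile of the 7 genes was Prdm16os, a non-coding RNA opposite Prdm16, at a distance of 0.19, with 4.96, 5.0 and 4.32 in CAF and 6.20, 6.18 and 6.42 in NDF. The matrix protein gene Ecm2 followed at 0.21, the imprinted non-coding RNA Mirg at 0.24, the proteoglycan phosphatase gene Pxylp1 at 0.25 and the calcium-activated potassium channel gene Kcnn2 at 0.27. Prdm16os was also the nearest gene to Gabra4 (0.23) and to Slc16a9 (0.17). The nearest gene to Adgrg6 was the cartilage gene Cnmd (0.24), and that to Rflna was Mia (0.23), which cartilage also expresses. Ntm lay nearest to Hhat (0.14), which acylates Hedgehog proteins, Itm2a to the secreted matrix-associated gene Cthrc1 (0.21) and Gria1 to Col5a1 (0.33). Cthrc1 averaged 6.78 in CAF and 9.24 in NDF, a difference of -2.46, and Mia averaged 10.04 in CAF and 11.31 in NDF.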

How the data were processed

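The 6 Affymetrix mouse arrays, 3 CAF and 3 NDF, were grouped by their titles. The deposited values are log2 intensities per probe set, made with GCOS and RMA per the submitters' processing notes, with versions not given in the sources used here. Of 45101 probe sets, 64 controls were left out, and 34945 named 1 gene in the platform annotation, 932 several and 9160 were not listed. No symbol needed updating from RefSeq (34741 matched by gene identifier). Each gene was represented by its brightest probe set on average (18193 genes), with no filter on dim values.

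The groups were compared by limma 3.58.1 in R 4.3.3, group as the only term, two-sided, with Benjamini-Hochberg adjustment over all genes and a threshold of 0.05. Standard errors of members came from the same model fitted over the 34945 named probe sets. Precision is limited by the small number of arrays. The members, lists, motifs and rules for named genes were chosen with earlier results of these data known. Named relatives were those past the threshold or the 3 with the smallest p in a list, and the family members of the 7 genes, other probe sets and the defining markers were added after their values were seen. For likeness of profiles, the 5 genes nearest the mean profile and the nearest to each member were named, leaving out predicted and clone genes. Of the listed relatives and markers, those without a probe set of their own here were not analysed. Alternatives are given in the closing section, and figures were drawn with matplotlib 3.10.9.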

Additional observations from a re-analysis of the deposited data

How the results depend on the processing

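The median difference of the 7 members was -1.58 to -1.81 under the other settings that keep all arrays, and -1.64 to -1.88 with 1 array left out, and every member was lower in CAF under every setting. Averaging all probe sets of a gene gave -0.98 for Gabra4 and -1.0 for Ntm, whose dim sets showed little difference. Over all genes the main fit called 5 lower and 89 higher in CAF. The count of genes lower in CAF was 0 with a replicate block, 11 with equal array medians, 17 with probe sets averaged per gene, 20 with an intensity trend, 95 with array quality weights, 27 at an adjusted p under 0.1, 8 with every probe set on its own, and 0 to 18 with 1 array left out (18 without CAF replicate 3, 9 without CAF replicate 1 and 0 without any other). The count higher was 20 with the replicate block, 135 with the trend, 343 with the weights, 171 at 0.1, and 5 to 138 with 1 array left out, the lowest without an NDF array and the highest without CAF replicate 3. Among the 163 relatives, 0 were higher with the replicate block, 2 with the mean of probe sets and 9 with the weights, and 0 to 3 with 1 array left out. For lower relatives the count was 1 with equal medians, the mean of probe sets, the trend or the 0.1 threshold, 3 with the weights, and 0 to 1 with 1 array left out. Cnmd was the relative called lower with equal medians, the mean of probe sets, the trend and without CAF replicate 3. Filip1l differed by -0.19 without CAF replicate 1 and by up to 0.63 otherwise with 1 array left out. The list medians and non-overlap counts without CAF replicate 3 were added after seeing the data. Causes of these changes were not tested, and low signal limits what the dim GABA-A subunit probe sets can show. Deviations of same-numbered arrays of the groups had correlations of -0.14, 0.14 and -0.04, against -0.12 to 0.15 for arrays of unlike number. Deviations within each group sum to 0, which constrains these values. They cannot decide whether same-numbered arrays shared a preparation, and the labels do not say.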
